A study of Drosophila melanogaster with 4 samples.

Results

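The regions described here are the places on the large autosome arms of Drosophila melanogaster (2L, 2R, 3L and 3R) where Maleless (MLE) was called in every one of 4 peak lists. Overlapping peaks of the lists, sharing at least 1 base, were merged into regions, and a region was kept when it held at least 1 peak of each list. This gave 5745 regions out of 32593 on these arms, or 17.6% (95% interval 17.2% to 18.0%), and out of 42358 on all sequences of the lists. They are called shared regions below. A region counts as inside a gene when its midpoint is, and distances to genes run from that midpoint. They were chosen by the measured presence of a called peak in each list, so their number and their scores are a description and were not tested. In every 4 values given in a row, those of the 0-2 h lists come before those of the 2-4 h lists, with control ahead of CLAMP RNAi at each age.

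MLE was mapped by CUT&RUN. In this assay an antibody, here a rat anti-MLE antibody, recruits micrococcal nuclease joined to protein A, and the fragments cut free around the bound sites are sequenced. The samples were whole male embryos from crosses to meiotic drive stocks. Control embryos had mothers of the genotype MTD-GAL4>GFPRNAi, and the others had mothers of the genotype MTD-GAL4>CLAMPRNAi, which lowers the CLAMP that the mother lays down in the egg. Each genotype was collected at 0-2 h and at 2-4 h, which gives 4 groups with 1 peak list each. MTD-GAL4 acts in the mother's germ line, so the RNAi concerns the maternal supply, and both genotypes carry the driver and an RNAi construct. The sample titles place both ages before the maternal to zygotic transition (MZT), while the series design places 2-4 h after it, so the groups are named by hours. The design mentions replicates of each group, but single replicates were not analysed here and their pooling is not stated. With 1 list per group, nothing below was tested between groups. No sample without the antibody was analysed here, so recurring signal that is not due to MLE could not be told from MLE binding at any shared region. All intervals are 95% intervals of counting error over regions or genes, which do not cover variation between embryos or libraries and treat neighbouring regions as independent.

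MLE is an ATP-dependent helicase that remodels the roX RNAs so that they assemble with the MSL proteins into the male-specific lethal complex, which coats the single X of males and raises its transcription through acetylation of histone H4. CLAMP is a zinc finger protein that binds GA repeats, is supplied to the egg by the mother and brings the complex to the X. MLE also has roles away from dosage compensation, among them in the processing of neuronal transcripts, and is found on autosomes as well as on the X.

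The lists differed in length. After repeated intervals were collapsed, the control lists held 28368 intervals at 0-2 h and 25149 at 2-4 h, and the CLAMP RNAi lists 22586 and 16000. The score is the authors' value for each peak and started at 13 in every list. It took 1736, 1765, 2149 and 699 distinct values. Scores of different lists are not on a common scale, so each was turned into a percentile, the share of the list's intervals that score the same or lower. The sequencing depth behind the lists is unknown.

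Shared regions held the upper end of every list. In this paragraph percentiles were taken among the autosomal peaks of each list, not among all its intervals. Of the autosomal peaks above the 99th percentile, 213 of 215 lay in a shared region in control 0-2 h, as did 163 of 166, 185 of 187 and 113 of 116 in the other lists. Of the peaks up to the 25th percentile, 6.74%, 12.6%, 6.77% and 31.3% did. The overall share of autosomal peaks inside a shared region was 27.3%, 36.1%, 31.7% and 51.0%. The strongest autosomal peaks were thus nearly all common to the 4 lists, and the shortest list had the largest part of its peaks in them.

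The median percentile of a shared region was 80.9 and 76.2 in the control and CLAMP RNAi lists of 0-2 h, and 79.5 and 73.4 in those of 2-4 h. Regions with peaks of 3 lists had medians of 57.5, 48.5, 51.2 and 41.8, and regions of 1 list had 29.6, 24.1, 23.8 and 41.3. The median percentile rose with the number of lists in the first 3 lists. In CLAMP RNAi 2-4 h, which has few distinct scores, the median stood near 41 for 1, 2 and 3 lists and was higher for 4. The lower quartile in that list was 15.8, 18.5 and 41.3 for 1, 2 and 3 lists. On the other side of the rule, 5921 autosomal regions missed exactly 1 list. CLAMP RNAi 2-4 h was the missing one in 4808 of them (81.2%), against 387 that lacked control 0-2 h, 537 that lacked CLAMP RNAi 0-2 h and 189 that lacked control 2-4 h. Dropping the requirement for a peak in CLAMP RNAi 2-4 h would raise the number of shared regions from 5745 to 10555. The part that the length of this list has in these counts was not tested.

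**Figure D1:**
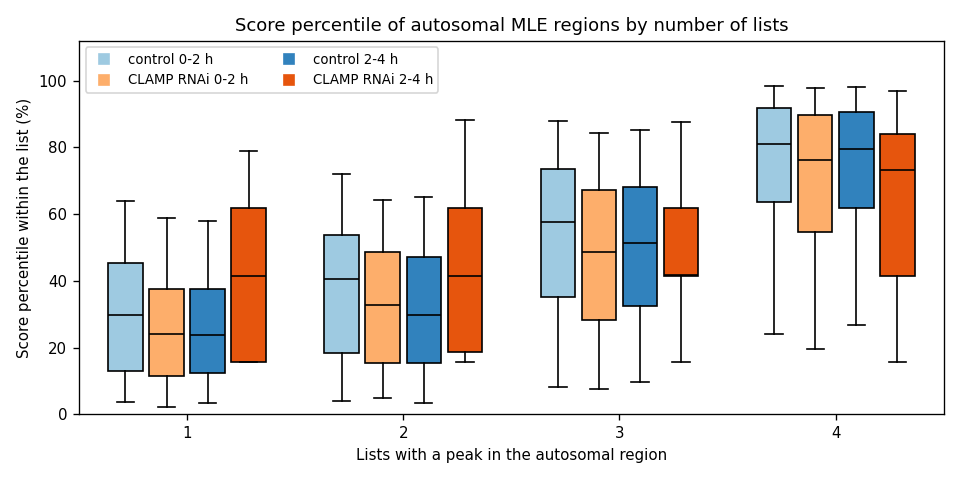
Score percentile within each list (vertical axis, %) of autosomal regions that hold peaks of 1, 2, 3 or 4 lists (horizontal axis). Boxes span the quartiles with the median as a line, whiskers reach the 5th and 95th percentiles over regions, and the boxes for 4 lists, with medians of 73.4 to 80.9, sit highest.

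Within the shared set the rank order was close in 3 of the lists. Across the 5745 regions Spearman's rank correlation was 0.838 between control 0-2 h and CLAMP RNAi 0-2 h, 0.859 between the 2 control lists and 0.872 between CLAMP RNAi 0-2 h and control 2-4 h. It was 0.482, 0.527 and 0.532 between CLAMP RNAi 2-4 h and control 0-2 h, CLAMP RNAi 0-2 h and control 2-4 h. These correlations run over regions chosen together from the same lists and are given as a description. Among the 100 strongest shared regions of each list, 80 were the same in the 3 closer lists and 35 in all 4. The lowest of a region's 4 percentiles fell in CLAMP RNAi 2-4 h for 3132 regions (54.5%), in CLAMP RNAi 0-2 h for 1208, in control 0-2 h for 783 and in control 2-4 h for 622.

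A group of 633 shared regions (11.0%) lay above the 90th percentile in every list, and 3031 (52.8%) lay above the 50th in every list. At the other end, 161 (2.80%) stayed under the 50th percentile in all 4. A further 1084 (18.9%) had percentiles more than 50 points apart. Of the 1179 regions above the 90th percentile in the 3 closer lists, 56 were under the 50th in CLAMP RNAi 2-4 h, and 8 other shared regions were above the 90th there and under the 50th in the 3 closer lists. On the median, the percentile of a shared region was lower by 1.90 points in CLAMP RNAi than in control at 0-2 h (the difference was -1.90, with 3817 regions lower and 1927 higher). At 2-4 h the difference was -6.81 points, with 4017 regions lower and 1728 higher. Percentiles depend on the length and make-up of the whole list, so these differences describe rank and not the amount of MLE.

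The shared site with the highest lowest percentile over the 4 lists lay in Cdep on 3R, at 3R:4919031-4919411 (dm6), 8669 bp from the nearest end of the gene, which encodes a FERM domain protein. Its scores were 1581088, 1915432, 2999688 and 47433, the last in CLAMP RNAi 2-4 h. It was ranked 1, 1, 1 and 4 among all intervals of these lists, the X included, and its 381 bp were identical in the 4 lists. A site in spok (3R:3344681-3345098), a heterochromatic gene for a cytochrome P450 of ecdysone synthesis, was ranked 2, 2, 2 and 18, with scores of 254524, 251753, 434924 and 10366. A site in cno (3R:5182883-5183263), the afadin homologue of adherens junctions, was ranked 7, 10, 8 and 11, with scores of 107166, 111115, 202251 and 15674. Like the Cdep site, the cno site covered the same bases in every list.

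The other 7 of the 10 strongest regions, ordered by their lowest percentile over the lists, included 4 with the midpoint outside genes. One lay at 2R:14388531-14388910, 1976 bp from CG10104, with ranks of 14, 9, 7 and 13. Another lay at 3R:28373750-28374130, 20320 bp from the odorant receptor gene Or98b, the nearest gene, with ranks of 12, 15, 11 and 19. The region 2L:4651098-4651474 had its midpoint 117 bp from CG3355, with its edge reaching into that gene, and had ranks of 32, 33, 29 and 16. These 3 stood in the top 33 of every list with the midpoint outside annotated genes. The region 2R:17391646-17392414 was wider, at 769 bp in each list. Its midpoint was 185 bp from each of 2 alanine tRNA genes, tRNA:Ala-TGC-1-1 and tRNA:Ala-TGC-2-1, so the region itself overlapped both. Its ranks were 9, 12, 12 and 36. The remaining 3 lay in Rgk1 (2R:19312501-19312881), which encodes a small GTPase of the RGK family, in Ip6k (2R:21648339-21648719), an inositol hexakisphosphate kinase, and in PIG-O (2R:18427922-18428303), an enzyme of GPI anchor synthesis. Their ranks over the 4 lists ran from 16 to 40. All 10 regions had 1 peak in each list.

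Regions with the widest spread of percentile show how far a site can be common to the lists by presence and not by rank. The region 2R:20487593-20487973, 3113 bp from lncRNA:CR44643, scored 13, 36, 120 and 1021, which placed it at percentiles of 3.68, 28.3, 67.2 and 99.0. It was weakest in control 0-2 h and among the strongest peaks of CLAMP RNAi 2-4 h. Its peak in control 0-2 h was 200 bp wide and its peak in CLAMP RNAi 2-4 h 381 bp. The region in cad (2L:20776018-20776560), which encodes Caudal, a maternal and zygotic transcription factor of the posterior embryo, scored 778, 2702, 3963 and 16. Its percentiles were 95.4, 97.7, 97.7 and 2.91, high in 3 lists and near the bottom in CLAMP RNAi 2-4 h. The peaks of the 4 lists had 90 bases in common there, and their centres spanned 226.5 bp.

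A region in Acsl (2R:8669231-8669611), a long-chain acyl-CoA synthetase gene, had percentiles of 93.9, 91.6, 90.4 and 0.525, and one in ena (2R:19157570-19157948), which encodes the actin regulator Enabled, had 95.2, 90.8, 90.1 and 2.05. Both were low in CLAMP RNAi 2-4 h alone. The peaks in ena kept their place, with 375 common bases and centres within 1.5 bp, whereas the Acsl peak in CLAMP RNAi 2-4 h was only 200 bp wide. In tna (3L:10841727-10842155), a trithorax group gene, the percentiles were 68.3, 2.19, 66.2 and 94.9, with the low value in CLAMP RNAi 0-2 h.

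**Figure D2:**
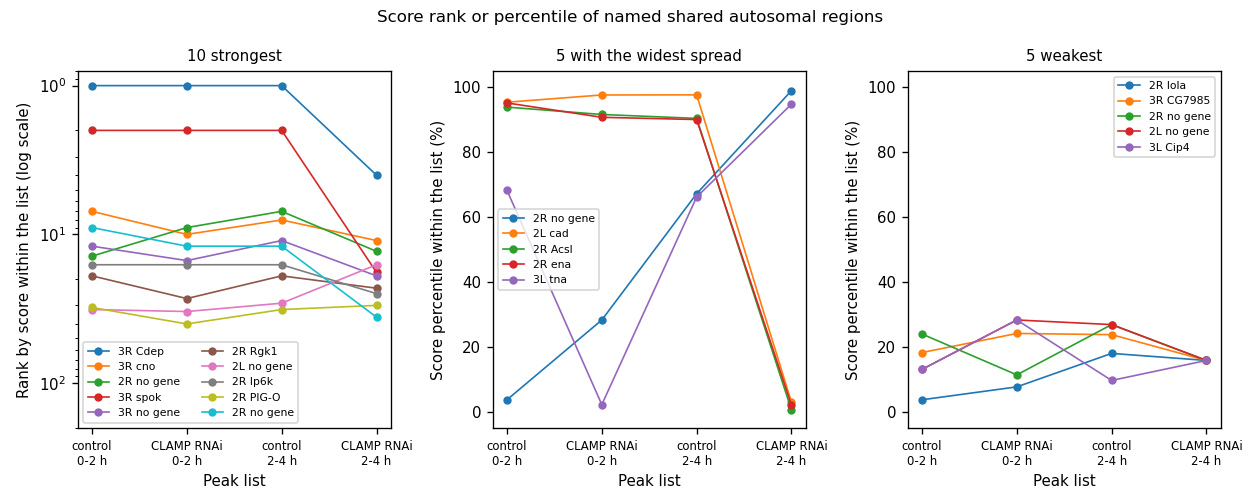
Left, rank by score (log axis, 1 is the highest score of the list) of the 10 strongest shared autosomal regions in each of the 4 lists. Middle and right, score percentile (%) of the 5 regions with the widest spread and of the 5 weakest. The Cdep site is ranked 1 in 3 lists and 4 in CLAMP RNAi 2-4 h, and the regions of cad, Acsl and ena fall below a percentile of 5 in that list alone.

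The 5 weakest shared regions never passed the 30th percentile. They lay in lola (2R:10521618-10522045), a BTB zinc finger transcription factor gene, with scores of 13, 20, 28 and 17, in CG7985 (3R:18200509-18201080) with 22, 33, 33 and 17, and in Cip4 (3L:4336096-4336639), an F-BAR domain gene, with 19, 36, 21 and 17. The other 2 had the midpoint outside genes, though each reached into the nearest one. At 2R:8572003-8572759 the midpoint was 234 bp from Cyp6a13, with scores of 26, 23, 36 and 17. At 2L:18703029-18703464 it was 141 bp from CG10376, with 19, 36, 36 and 17. In 2 of the 5, CG7985 and the region near Cyp6a13, no base was common to the 4 lists. The score of 17 in CLAMP RNAi 2-4 h, equal in all 5, is a percentile of 15.8 there, so these weak peaks stand at the same step of that list.

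Most shared regions were compact. In 5314 of them (92.5%) each list had a single peak, and the median width of a region was 413 bp, with a range of 204 to 2248 bp. The most frequent peak width over 200 bp was 381 bp, and 1973 regions (34.3%) were 376 to 386 bp wide. Peaks in the top 10% of the shared set by percentile had median widths of 381, 381, 382 and 381 bp. Below the median percentile the widths stayed near this value in the first 3 lists (378, 373 and 379 bp) and the median was 204 bp in CLAMP RNAi 2-4 h. In that list 43.8% of these weaker peaks were 200 bp or less, against 7.42%, 10.2% and 3.74%. Only 167 regions were wider than 1000 bp, and all shared regions together covered 2.92 Mb.

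In the 5314 regions with 1 peak per list, the centres of the 4 peaks lay within 10 bp in 1324 (24.9%) and more than 150 bp apart in 1021 (19.2%), with a median range of 85 bp. Leaving out CLAMP RNAi 2-4 h gave a median range of 23.5 bp over the other 3 centres. The range depended on strength. Where the lowest percentile over the lists was above 90, the median range was 3.0 bp and 71.6% of 613 regions had their centres within 10 bp. Between 50 and 90 it was 55.5 bp (32.1% of 2207), between 25 and 50 it was 90.5 bp (9.67% of 1261), and up to 25 it was 110.5 bp (4.38% of 1233). Strong sites were thus called at the same place in each list, and weak ones were called at places that overlapped. The merge also joined peaks that did not all touch. In 140 regions (2.44%) no base was common to the 4 lists, and the median of their lowest percentile was 15.8, while 5087 regions (88.5%) had at least 100 common bases.

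**Figure D3:**
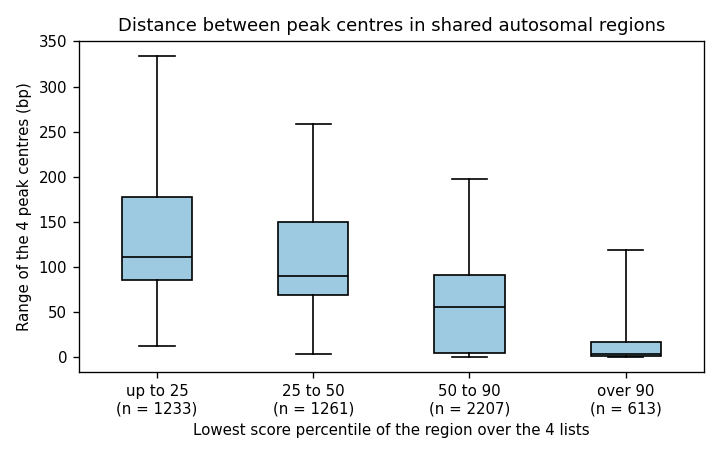
Range of the 4 peak centres in bp (vertical axis) of shared autosomal regions with 1 peak per list, by the lowest score percentile of the region over the 4 lists (horizontal axis). Boxes span the quartiles, lines are medians and whiskers reach the 5th and 95th percentiles, and the median falls from 110.5 bp to 3.0 bp with rising percentile.

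The 5 widest regions held peaks of middling rank, and each was split in at least 1 list. The widest, 2R:10261144-10263391 (2248 bp), lay in lncRNA:CR30009 at percentiles of 74.9, 74.5, 71.1 and 61.9. A region of 2072 bp lay in Unr (3L:8438296-8440367), whose RNA-binding product acts with Sex-lethal to repress msl-2 mRNA in females and takes part in assembly of the dosage compensation complex in males. Its percentiles were 76.2, 84.3, 78.9 and 79.7, with 1, 3, 2 and 3 peaks in the lists. Regions in Lar (2L:19626352-19628265), a receptor tyrosine phosphatase gene that overlaps CG46244 there, in CG43102 (3R:17774782-17776531) and in Pde6 (3R:14544116-14545822), a phosphodiesterase gene, were 1914, 1750 and 1707 bp wide. None of the 5 reached the 95th percentile in any list.

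Shared regions were spread over all 4 arms. Arm 2L held 1161 (49.4 per Mb), 2R held 1288 (51.0 per Mb), 3L held 1463 (52.1 per Mb) and 3R held 1833 (57.2 per Mb), and the interval of 3R (54.6 to 59.8 per Mb) lay above that of 2L (46.6 to 52.3 per Mb). As a share of the regions of each arm they were 15.9%, 18.8%, 17.1% and 18.6%. The X held 2569 such regions at 109.1 per Mb, and 27.9% of its 9207 regions were shared. Regions above the 90th percentile in every list made up 11.0% of the shared regions on the autosome arms and 13.5% on the X. These shares come from the peaks and scores that chose the regions and are given without a test.

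Density fell towards the centromeric end of the arms. It was 17.6 per Mb in the 2 Mb nearest to it (141 regions), 29.4 per Mb from 2 to 5 Mb, 50.0 per Mb from 5 to 10 Mb and 61.7 per Mb farther out. The share of regions that were common to the 4 lists changed much less, at 16.1%, 17.0%, 16.4% and 18.1%. The interval nearest the centromere (13.7% to 18.7%) includes the outermost value, and that from 5 to 10 Mb (15.5% to 17.3%) does not. Single bins of 1 Mb held between 13 and 97 shared regions, with a median of 54. The fullest lay 17 Mb from the centromeric end of 3L and held 97 of its 489 regions, while the bins at the centromeric end of 3L and 3 Mb from it held 13 of 82 and 13 of 102.

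**Figure D4:**
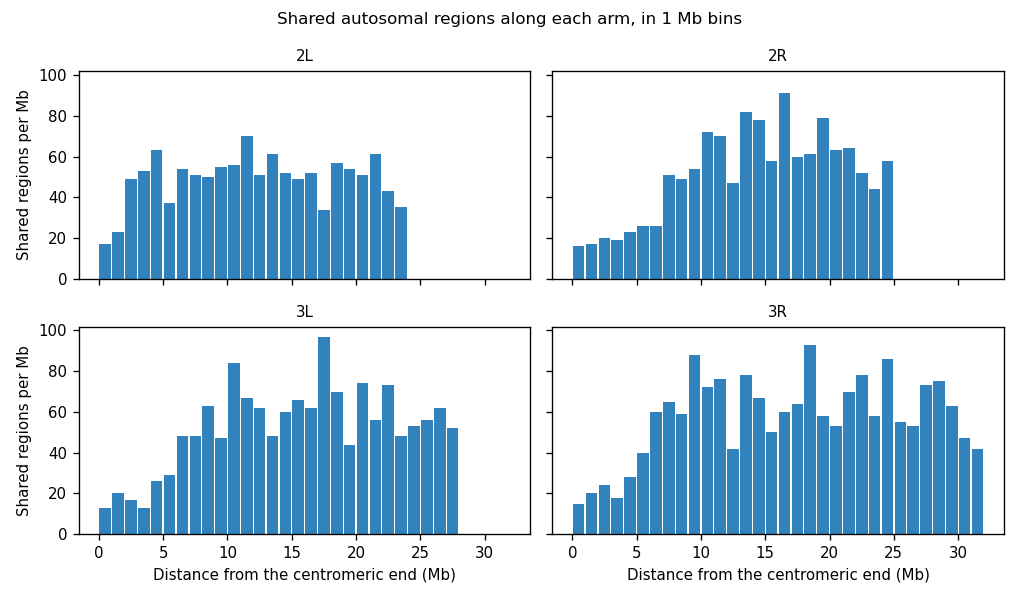
Shared autosomal regions per Mb (vertical axis) in bins of 1 Mb along 2L, 2R, 3L and 3R, by distance from the centromeric end of the arm (horizontal axis, Mb). Each bar is the density in 1 bin, from 13 to 97 per Mb, with low values at the centromeric ends. The last bin of 2L is shorter than 1 Mb, and its 18 regions are drawn as 35.0 per Mb.

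Neighbouring shared regions were a median of 10860 bp apart, midpoint to midpoint, with a range of 492 to 309063 bp. There were 88 distances over 100 kb. The longest lay on 2R between 4224800 and 4533863, where 28 regions of 1 to 3 lists were called and 4 genes lay wholly inside. A stretch of 274681 bp on 2L, between 21390362 and 21665043, held 103 regions of 1 to 3 lists and none of all 4. It covers 150 annotated genes, of which 111 are histone genes by symbol, the tandem array of replication-dependent histones. How reads that match several copies were treated is not stated.

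Chaining neighbours within 5 kb put 2514 shared regions (43.8%, interval 42.5% to 45.1%) into 1046 clusters, of which 760 were pairs and 83 had at least 4 regions. On the X, where shared regions are denser, 65.4% were in such clusters. No share for regions spaced at random was computed. Whether shared regions cluster more than their density of 52.7 per Mb on the autosome arms would give was therefore not tested. The autosomal share depends on how many regions are kept and on the distance. It was 12.7% with a score of at least 50, 65.1% without CLAMP RNAi 2-4 h, 17.4% for neighbours within 2 kb and 88.8% within 20 kb. The fullest cluster, on 3L (11245955-11264027), held 9 regions over 18073 bp, 4 of them in scyl, which encodes an inhibitor of the TOR pathway, 1 in lncRNA:CR44717 and 4 outside genes. Its highest percentiles were 96.8, 93.6, 96.3 and 89.6 and its lowest 13.4, 7.66, 35.3 and 17.5, so strong and weak sites stood side by side. A pair of clusters with 7 regions each (3R:10504881-10519822 and 3R:10581372-10602633) lay in and beside hth, which encodes the Hox cofactor Homothorax. One more cluster of 7 (3R:13569124-13584962) lay outside genes throughout, and another (3R:21319273-21338736) lay in aus. Of the 1468 neighbouring pairs within 5 kb, 966 (65.8%) lay in the same gene and 286 (19.5%) lay outside genes on both sides.

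By their midpoints, 4127 shared regions (71.8%) lay inside an annotated gene, against 69.9% of the autosomal regions with peaks of 1 to 3 lists (difference 1.91 points, interval 0.608 to 3.18). The midpoint was within 500 bp of a gene end in 910 (15.8%, interval 14.9% to 16.8%), against 19.3% of the other regions (difference -3.47 points, interval -4.51 to -2.40). More than 10 kb from any gene end lay 20.9% against 18.2% (difference 2.74 points, interval 1.60 to 3.90). With a score of at least 50 in each list the first of these differences turned to -0.397 points. Against all regions of 1 to 3 lists, and over all scores, shared regions were somewhat more often inside genes and over 10 kb from a gene end. They were less often at gene ends. Against regions of 3 lists alone the differences were smaller. They were 0.987 points inside genes (interval -0.655 to 2.63, which includes 0) and -1.57 points at gene ends (interval -2.92 to -0.221). Over 10 kb from a gene end the difference was 1.80 points (interval 0.352 to 3.26). The regions over 10 kb from a gene end were not split into those inside and outside genes. The share at gene ends went down step by step with the number of lists, at 20.2%, 18.9%, 17.4% and 15.8% for 1, 2, 3 and 4 lists. The X showed a difference of -3.47 points as well (interval -5.02 to -1.86), with 335 of its 2569 shared regions at gene ends. Its differences inside genes (2.82 points, interval 0.939 to 4.65) and over 10 kb from a gene end (4.00 points, interval 2.06 to 5.99) were also above 0. These traits are thus not particular to the autosome arms.

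Score moves with the number of lists, so the gene-end difference was also taken among regions of like percentile in a control list, a comparison added after the values were seen. In control 0-2 h it was -0.701 points up to the 25th percentile, -3.62 from the 25th to the 50th, 0.217 from the 50th to the 75th and -2.22 above. In control 2-4 h it was -2.28, -3.24, -2.66 and -1.15. Of these 8 differences 7 were below 0, but the interval excluded 0 only for -3.62 and -2.66. Among the shared regions themselves, no difference in position between strong and other regions could be told. The 633 regions above the 90th percentile in every list lay inside genes in 71.7% and within 500 bp of a gene end in 16.1%, and the differences from the other shared regions were -0.129 points (interval -3.96 to 3.46) and 0.308 points (interval -2.54 to 3.53). They did differ in width, since 45.5% of them were 376 to 386 bp wide against 33.0% (difference 12.5 points, interval 8.48 to 16.6).

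A called region was more often a shared one in a long gene than in a short one. A midpoint inside a gene under 2 kb is always within 1 kb of a gene end. This result is therefore not independent of the one at gene ends, and regions of like percentile were not compared here. Of autosomal regions in genes of 100 kb or more, 21.0% were shared (628 of 2986), against 11.0% in genes under 2 kb (168 of 1527), a difference of 10.0 points (interval 7.84 to 12.1). Regions outside genes were shared in 16.7%, and the genes of 100 kb or more exceeded them by 4.34 points (interval 2.72 to 6.00). Genes of 5 to 20 kb, at 17.3%, could not be told from regions outside genes (difference 0.647 points, interval -0.580 to 1.90). On the X the share was 16.5% under 2 kb. It was 30.3% at 20 to 50 kb, 30.9% at 50 to 100 kb and 30.2% at 100 kb or more. Intervals were not computed for the X, so the order of its classes from 20 kb up was not established.

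**Figure D5:**
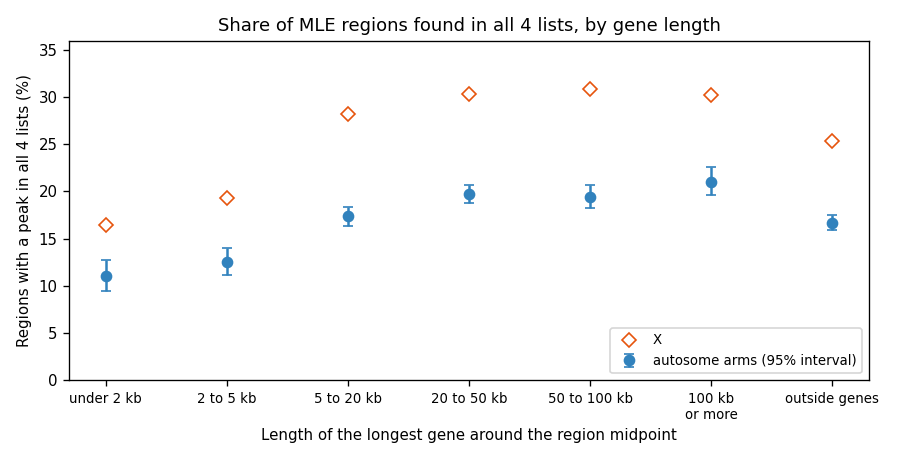
Share of called regions that hold a peak of all 4 lists (vertical axis, %) by the length of the longest gene around the region's midpoint, or outside genes (horizontal axis). Filled points are the autosome arms with exact binomial 95% intervals and open diamonds are the X, and the autosomal share goes from 11.0% under 2 kb to 21.0% at 100 kb or more.

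Counted by gene, 1977 of the 14865 annotated genes of the 4 arms (13.3%) had the midpoint of a shared region inside. The number was 903 with a score of at least 50 and 2977 without CLAMP RNAi 2-4 h. The share was 2.54% for genes under 2 kb, 36.9% for 5 to 20 kb and 96.8% for 100 kb or more, so the share rose steeply with the length of the gene. A single shared region was found in 1180 genes, 5 or more in 206 and 10 or more in 52. Among protein-coding genes 1823 of 11645 (15.7%) held one, among lncRNA genes 118 of 1704 (6.92%), among tRNA genes 7 of 266 and among snoRNA genes 0 of 237 (exact upper limit 1.54%). The median gene length of these classes was 2080, 657, 73 and 132 bp. Where genes overlap, a region was counted in each, which concerned 292 regions.

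The most shared regions lay in Myo81F, an unconventional myosin gene that spans 1965857 bp of heterochromatin at the base of 3R, with 46 of its 197 regions shared. Next was Rbp6, which encodes an RNA-binding protein of the Musashi family, with 29 of 82 over 179439 bp. Then came bru3 (23 of 124), a Bruno family gene, SKIP (22 of 79), Glut4EF (21 of 53), hth (21 of 69), the Krüppel-like factor gene luna (21 of 66) and the splicing factor gene mbl (21 of 71). The last of the 10 were pum (20 of 76), whose product represses translation of maternal mRNAs, and bru1 (19 of 66), also of the Bruno family. All 10 are longer than 100 kb, and no test of a shared function was made. The strongest region in this group lay in bru3 (3L:13629414-13629799), at percentiles of 99.9, 99.9, 99.9 and 99.7.

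Relative to length, among genes of at least 5 kb with at least 3 shared regions, the first was CG4702 with all 3 of its regions shared in 6619 bp. It was followed by lncRNA:CR45054, by nSyb (the neuronal synaptobrevin), by Task6 (a potassium channel), by rin (the homologue of the stress granule protein G3BP) and by the Iroquois homeobox gene ara, with 6 of 12. The list ended with wech (4 of 5), with CtBP (5 of 8), a transcriptional corepressor, with Notum (3 of 7), an enzyme that inactivates Wnt ligands, and with cad (4 of 5). These dense genes differed in strength. In wech the best region (2R:7480708-7481093) had percentiles of 98.6, 97.7, 97.4 and 96.3, while in rin the best (3R:13652280-13652689) had 49.7, 24.1, 56.3 and 84.0.

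The 4 shared regions of cad moved apart between the lists. The region with the high scores of 778, 2702 and 3963 dropped to 16 in CLAMP RNAi 2-4 h, as given above. Its neighbour 2L:20777240-20777615 scored 258, 457, 551 and 40, at percentiles of 88.5, 90.5, 89.2 and 65.4. The other 2, at 2L:20773631-20774006 and 2L:20774227-20774599, scored 22, 68, 20 and 24, and 69, 147, 81 and 49. The region that scored highest of the 4 in the first 3 lists therefore scored lowest in CLAMP RNAi 2-4 h.

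Genes of 14 lists, chosen with earlier results in view, were counted beside all genes of the same length classes. For each of the 14 lists the exact interval of its share includes the share of genes of like length. Among maternal axis and germ plasm genes 9 of 23 held a shared region (39.1%, against 36.1% for genes of like length). Besides pum and cad they included hb, the anterior gap gene, with 2 of 4 regions shared, and hts with 3 of 15. In nanos, the posterior determinant, the region 3R:19159835-19160308 had percentiles of 29.6, 67.2, 49.2 and 85.6. In vas, the germ plasm helicase gene, 2L:15071886-15072300 had 35.0, 77.7, 77.1 and 97.8. Both, named after their values were seen, were higher in the CLAMP RNAi list than in the control list of the same age. Other members went the other way at both ages, such as capu, whose region had percentiles of 74.9, 28.3, 70.4 and 41.3, and BicD, with 49.7, 41.2, 49.2 and 41.3. The genes bcd, osk, grk, stau, aub and piwi were among the 14 genes without a shared region.

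Among blastoderm transcription factor genes 11 of 24 held one (45.8%, against 36.1% by length). The homeotic genes Antp (9 of 43 regions) and Ubx (7 of 45) held more than any other gene of this list. The terminal gap gene tll had its only region (3R:30853884-30854264) shared, at percentiles of 99.4, 99.6, 99.2 and 96.6. In the pair-rule gene opa, 3R:4867727-4868105 scored 13095, 31567, 34449 and 1101. No shared region lay inside eve, ftz, hry, odd, prd, slp1, slp2, Kr, kni, hkb, bcd, Dfd or lab. Shared regions were thus present in some short patterning genes at high rank and absent from the bodies of others.

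The signalling lists are given with the share of genes of like length in the same way, with no test of the difference. Counts of shared regions in a gene are given out of its called regions. Over all autosomal regions the shared part was 17.6%. Notch pathway genes held a shared region in 7 of 22 (31.8% against 32.5%). The coactivator gene mam had 10 of 38 regions shared. The protease gene kuz had 7 of 41 and the ligand gene Delta 5 of 15. BMP pathway genes held a shared region in 7 of 16 (43.8% against 46.7%). In the transcription factor gene shn 8 of 27 regions were shared, and in the glypican gene dally 7 of 27. Wnt pathway genes reached 11 of 17 (64.7% against 52.4%), with 10 of 41 regions in the receptor gene fz2 and 7 of 37 in fz. Hedgehog pathway genes reached 5 of 12 (41.7%, interval 15.2% to 72.3%, against 26.6%), with 2 of 8 regions in the receptor gene ptc. The EGF and FGF receptor pathways had 13 of 25 (52.0% against 49.9%), among them Egfr with 4 of 10 regions shared. The JAK/STAT pathway had 3 of 6 (50.0% against 54.4%), with 12 of 45 regions in the phosphatase gene Ptp61F. Of all called regions in the genes of a signalling list, between 16.7% (Hedgehog) and 26.0% (JAK/STAT) were shared.

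Genes of ecdysone synthesis and response held a shared region in 10 of 16 (62.5% against 65.5%). In the nuclear receptor gene Eip75B 13 of 52 regions were shared, and in Eip93F 10 of 40. The list of heterochromatic genes held a shared region in 13 of 22 (59.1% against 63.5%), with 15 of 67 regions in Pzl. That list also counted Set, at 3R:15263552-15265253, far from the centromeric end of its arm and without a shared region. Genes of tracheal and epithelial morphogenesis reached 13 of 23 (56.5% against 54.3%). Neuronal adhesion genes of the immunoglobulin superfamily reached 43 of 60 (71.7% against 69.4%), with 8 of 23 regions in side. The neuronal ion channel list stood at 19 of 23 (82.6% against 69.7%). Shared regions were 17 of 50 in nAChRalpha6 and 13 of 37 in nAChRalpha1, both acetylcholine receptor subunits, and 10 of 19 in the GABA receptor gene Rdl. The short proteasome genes stood lowest, at 1 of 28 (3.57% against 3.87%). The exception, Prosalpha2, held a region (3R:12431866-12432249) at percentiles of 99.1, 98.6, 98.8 and 95.9.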

How the data were processed

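Peaks of MLE CUT&RUN were taken from 4 peak lists as deposited, 1 per group, grouped by the age and the mother's genotype in the labels. Per the submitters' processing notes the build was dm6 and the tools included FastQC, Trim Galore, BWA, Bowtie2, SAMtools, Picard 2.20.2 and MACS2, with no step given. The score is the authors' deposited value for each peak, and its definition, the calling threshold and any control library are not given in the sources used here. Intervals listed repeatedly were collapsed to 1 with the highest score. Percentiles, the merge, clusters and distances were computed with Python 3.11.15, pandas 2.3.3, numpy 2.4.6 and SciPy 1.17.1 and tested on simulated data. A region took its highest-scoring peak of each list. Coordinates are 1-based. Genes came from a RefSeq table of the Release 6 genome, which gives neither strand nor exons, so position was measured to either gene end. A gene counted for a region when it held the region's midpoint. Shares carry exact Clopper-Pearson intervals, densities per Mb carry exact Poisson intervals and differences carry Newcombe intervals, over regions, and no p-value was computed. Named regions were the 10 with the highest lowest percentile, the 5 with the widest spread, the 5 with the lowest highest percentile and the 5 widest. Named genes were the 10 with most shared regions, the 10 with most per kb, and members of 14 lists, and named clusters were the 5 fullest. Others were named after their values were seen. Members, lists and rules were chosen with earlier results of these data known. Alternatives changed the score minimum, list length, overlap, peak width, distances and the lists used. Sequence motifs were planned and not analysed here.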

Additional observations from a re-analysis of the deposited data

Results flagged for a closer look

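In 6 of the regions named for strength, spread, weakness or width, the CLAMP RNAi minus control difference in percentile had opposite signs at the 2 ages, by at least 1 point at each. No test of this difference between the ages was possible with a single list for each group. The cad region (2L:20776018-20776560) had -94.79 points at 2-4 h and 2.243 at 0-2 h, and the tna region (3L:10841727-10842155) had 28.65 at 2-4 h and -66.07 at 0-2 h. The lola region (2R:10521618-10522045) had -2.172 and 3.98, the CG7985 region (3R:18200509-18201080) -7.958 and 5.889, the region 2L:18703029-18703464 -11.06 and 15.24, and the CG43102 region (3R:17774782-17776531) 6.087 and -8.69, each at 2-4 h and then at 0-2 h. The last 4 scored at most 70 in every list. The cad and tna regions had been named for their wide spread of percentile. The lola, CG7985 and 2L:18703029-18703464 regions had been named as weakest, and the CG43102 region for its width. How often the sign changes between the ages among all shared regions was not counted, so it is unknown whether these regions are unusual in this. Outside the large autosome arms and the X, regions with a peak in all 4 lists also appeared on chromosome 4, with 45 of 356 (12.64%), and on chromosome Y, with 54 of 202 (26.73%). No sample without the antibody was analysed here, so these counts, like those of the large autosome arms and the X, have no background level.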

How the results depend on the processing

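Other settings gave 179 recomputed values. The number of shared autosomal regions was 5745 as reported, 1883 with a score of at least 50, and 5911 to 10555 when 1 list at a time was left out, the highest without CLAMP RNAi 2-4 h. The share of autosomal regions (17.6%) was 11.8% with that score, 20.0% with the strongest 16000 intervals of each list, 17.2% with a base common to all 4 lists, 15.6% with 100 common bases, 17.2% without peaks of 200 bp or less, and 19.9% to 36.1% with 1 list left out. The share near a gene end was 7.80% within 200 bp and 25.8% within 1 kb, against 15.8% within 500 bp. With a score of at least 50 the share inside genes was 70.6%, and its difference from regions of 1 to 3 lists reversed to -0.397 points; the cause was not tested. The other 9 settings kept this difference above 0 with an interval that excluded 0. The gene-end difference stayed below 0 in 12 of 12 planned settings (-4.48 to -1.96 points). Among regions of like percentile, added after the values were seen, it reversed to 0.217 in one band of control 0-2 h and its interval included 0 at -0.701 and -2.22 there and at -2.28, -3.24 and -1.15 in control 2-4 h. No paired analysis was possible because each group has 1 list and the labels number no replicates. Sequence motifs were not run.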
